A study of Homo sapiens with 15 samples.

Results

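HEK293T cells, a line derived from human embryonic kidney, were given short hairpin RNAs against PABPN1 (shPABPN1, 2 libraries) or against ZNF384 (shZNF384, 2 libraries), and the use of poly(A) sites was set side by side in the 2 knockdowns. The series holds 15 RNA-seq libraries in all. The other 11 are 2 each of shHDAC1, shPCBP2, shSF3B4 and shU2AF2 and 3 of shControl, the control hairpin. The series' design text names PABPN1 among regulators of alternative polyadenylation, and ZNF384 is named in the sample labels only. The labels give no hairpin sequence, no time after knockdown and no word on whether the replicates were separate cultures, so p-values measure only the spread between these samples, which may be technical. Poly(A) RNA was captured on oligo(dT) beads in every group. The labels speak of nuclear as well as total RNA, and the control library names carry a suffix (nuc) that those of the knockdowns lack, with no meaning stated.

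Each value is a PDUI, the fraction of a gene's messages estimated to use the distal rather than the proximal poly(A) site. At 1 all of them end distally, and near 0 almost all end proximally. Of the 13056 genes in the deposited table, 12227 (93.7%) had a value in all 4 libraries of shPABPN1 and shZNF384, and these are the genes compared. The other 829 lacked a value in at least 1 of the 4. Missing values made up 3.78% and 3.65% of the table in shPABPN1 replicates 1 and 2, and 2.21% and 1.37% in shZNF384 replicates 1 and 2. The pair was chosen as the groups with the lowest and the highest mean PDUI, so the gap between library means is given below without a test. PDUI carries no expression level, so neither the strength of the knockdowns nor the identity of the cells could be checked. Of 10 markers of other cell types, 1 was in the table.

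A gene with more than 1 poly(A) site can make messages with short or long 3′ untranslated regions, and the long form carries more sites for microRNAs and RNA-binding proteins. Cleavage is directed mainly by a hexamer upstream of the cut, most often AATAAA or ATTAAA in DNA letters, and poly(A) polymerase then adds the tail. PABPN1, the nuclear poly(A)-binding protein, coats the growing tail, stimulates the polymerase and takes part in nuclear RNA decay. Loss of PABPN1 has been described in human cells as favouring proximal sites. ZNF384 is a C2H2 zinc finger protein that binds A-rich runs of DNA.

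The 3′ ends below belong to the first 3 genes by size of fall and the first 3 by size of rise, clone names left out. Only genes whose annotated transcript has the version named in the table were taken, which passed over REM2 and SH3BP5-AS1 among the falls. These are annotated transcript ends, and the distal site behind each PDUI is not given in the sources used here. Each is the final 30 bases of the transcript in GENCODE release 29 on GRCh38, read 5′ to 3′ on the transcript's strand, with a hexamer in capitals where AATAAA or ATTAAA was found. Only that strand was searched.
CENPBD1 (chr16:89969773-89969802, minus strand): tatttaaatatatgcttttaaaagctcata
PREX1 (chr20:48624252-48624281, minus strand): ttattATTAAAagtcagtttataatacaaa
DAZAP2 (chr12:51271333-51271362, plus strand): cgctaggtcttgttaccttggcttcccgtt
HYMAI (chr6:144004916-144004945, minus strand): atatatatgAATAAAatctcctgtctctaa
DDHD1 (chr14:53036745-53036774, minus strand): ATTAAAaaacacaaaagcaatatgtttctc
AGAP1 (chr2:236131771-236131800, plus strand): ataaagaaatgaaaatatgtctacaccgct
PREX1, HYMAI and DDHD1 held 1 of the hexamers in this window, and CENPBD1, DAZAP2 and AGAP1 held neither.

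Across the compared genes PDUI lay lower in shPABPN1 than in shZNF384. The mean PDUI was 0.539 and 0.545 in the shPABPN1 libraries, against 0.583 and 0.591 in the shZNF384 libraries, and the library medians were 0.53 and 0.54 in shPABPN1 and 0.61 and 0.62 in shZNF384. The difference shPABPN1 minus shZNF384 was negative in 7894 genes (64.6%), positive in 3233 (26.4%) and 0 in 1100, with a median of -0.035. The middle part of the genes, between the quartiles, ran between -0.105 and 0.005. The median absolute difference between the groups was 0.06, and the median gap between replicates was 0.04 in shPABPN1 and 0.04 in shZNF384. The first is a difference between means of 2 libraries and the second a gap between single libraries. Both libraries stood at 1 in 984 genes (8.05%) in shPABPN1 and in 1336 (10.9%) in shZNF384. In these bulk libraries a small shift in every cell and a larger one in some cells cannot be told apart.

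The other groups lay between the 2 knockdowns, which follows from the choice of the pair. Over the same genes the mean PDUI was 0.559 in shHDAC1, 0.575 in shPCBP2, 0.569 in shSF3B4 and 0.572 in shU2AF2. In shControl it was 0.552 ± 0.0226 (SD of library means, n = 3), nearer to the 0.542 of shPABPN1 than to the 0.587 of shZNF384. Replicate 1 of shControl stood apart from the others at a mean of 0.522, against 0.56 and 0.561, over the 11353 genes with a value in all 15 libraries. Over these genes the shPABPN1 libraries stood at 0.533 and 0.539 and the shZNF384 libraries at 0.578 and 0.585. Replicate 1 thus lay below both shPABPN1 libraries, and the nearness of the shControl mean to shPABPN1 rests on it.

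Gene by gene, 375 of 12227 genes (3.07%) differed at an adjusted p under 0.05 by limma, fitted to all 15 libraries with Benjamini-Hochberg adjustment. Of these, 210 genes (1.72%) fell in shPABPN1 relative to shZNF384 and 165 (1.35%) rose. A difference of at least 0.1 was reached by 263 of the called genes (2.15% of those tested), 170 of them lower and 93 higher, and a difference of at least 0.3 by 31 that fell and 16 that rose. The falls had a median of -0.175 and the rises a median of 0.115. No called or uncalled gene went as far as a mean of 0.2 or less in one knockdown and 0.8 or more in the other. Without a test, both shPABPN1 libraries lay below both shZNF384 libraries in 4652 genes (38.0%) and above both in 1221 (9.99%), and 2845 genes (23.3%) had an unadjusted p under 0.05.

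The count of calls depended on the libraries fitted. Leaving out any 1 library of the pair lowered it. Each such fit leaves 1 library in a group, so the drop cannot be laid to a particular library. Without shControl replicate 1, which enters through the shared spread alone, there were 1204 calls, of which 938 fell and 266 rose. With the 12 knockdown libraries alone there were 943, and with the 4 libraries of the pair alone there were 0, although 2541 genes then had an unadjusted p under 0.05.

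The balance of falls and rises depended on how the libraries were scaled. On the values as deposited 56.0% of the calls were falls. With each library centred on its median, the median difference over genes became 0.035, and 30 genes fell and 366 rose. With each library shifted by the median of its differences from the gene means, a choice made after seeing the data, the median difference was -0.0033, and 102 genes fell and 376 rose. Directions below are those of the deposited values. Of the 375 called genes, 24 had the other sign under centring and 7 under the shift.

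**Figure D1:**
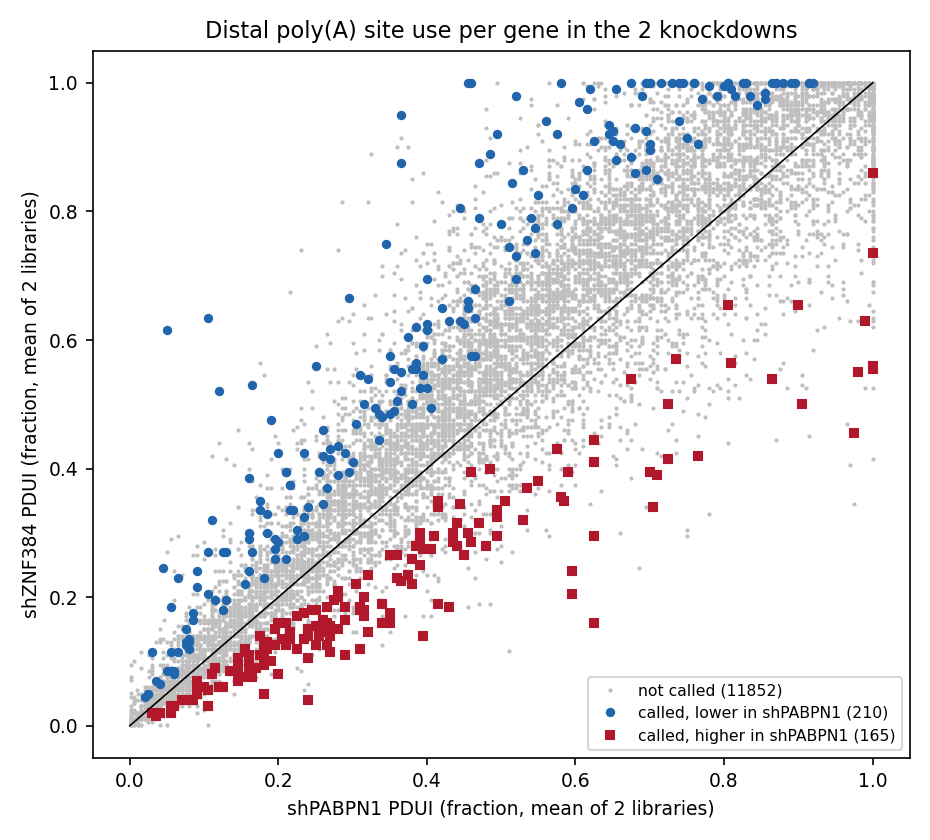
Mean PDUI of each compared gene in shPABPN1 (horizontal axis) and in shZNF384 (vertical axis), both as fractions over 2 libraries, with called genes coloured by direction. The 210 genes that fell in shPABPN1 lie above the diagonal and the 165 that rose lie below it.

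Where a gene stood on the scale went with the direction of its call. The level was taken as the mean PDUI over the 11 libraries outside the pair. Their levels do not enter the difference, although their spread enters the test. Of 1886 genes with a level under 0.2, used mostly at the proximal site, 96 (5.09%) rose in shPABPN1 and 31 (1.64%) fell. Of 3335 genes at 0.8 or above, 2 (0.06%) rose and 52 (1.56%) fell. Between these, 50 of 1920 genes (2.6%) rose and 51 (2.66%) fell at a level of 0.2 to 0.4, 12 of 2403 (0.499%) rose and 42 (1.75%) fell at 0.4 to 0.6, and 5 of 2683 (0.186%) rose and 34 (1.27%) fell at 0.6 to 0.8. Thus the share that fell kept between 1.27% and 2.66% over the whole scale, while the share that rose dropped with every step up in level. PDUI cannot exceed 1, and at a level of 0.8 or above the shZNF384 median was 0.965, which leaves little room to rise. In the same way, genes near 0 have little room to fall. The part of these bounds in the counts was not tested.

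The median difference itself was -0.0045 under a level of 0.2, -0.03 at 0.2 to 0.4, -0.065 at 0.4 to 0.6, -0.09 at 0.6 to 0.8 and -0.02 at 0.8 to 1. It was farthest below 0 in genes that used both sites, and nearest 0 below 0.2. The called falls had a median level of 0.51 and the called rises one of 0.177, against 0.592 over all compared genes. The replicates were closest below 0.2, with median gaps of 0.02 in shPABPN1 and 0.01 in shZNF384, and farthest apart at 0.6 to 0.8, with 0.08 in shPABPN1 and 0.07 in shZNF384. The part of this spread in the counts by level was not tested.

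**Figure D2:**
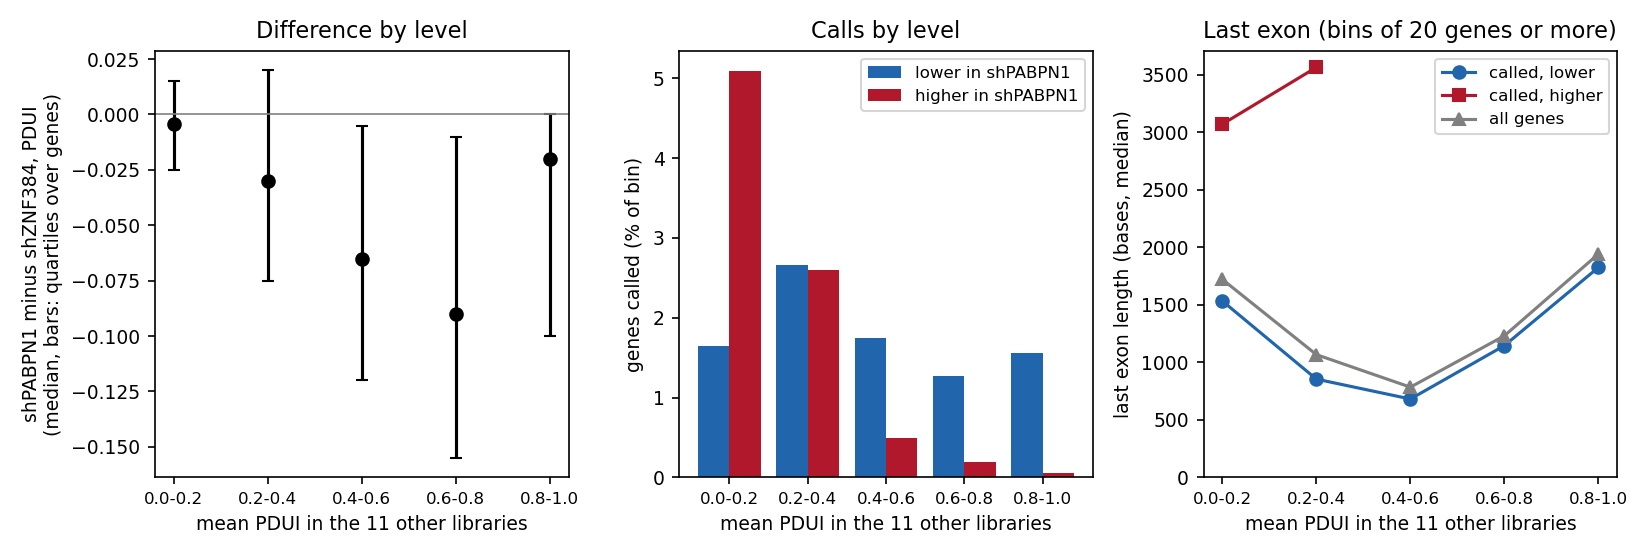
Median difference (PDUI, shPABPN1 minus shZNF384, bars for the quartiles over genes), share of genes called (percent) and median last exon length (bases, sets of 20 genes or more), in 5 bins of the mean PDUI over the 11 libraries outside the pair. Called rises drop with level, with 5.09% in the lowest bin and 0.06% in the highest, the median difference is lowest, at -0.09, in the bin 0.6 to 0.8, and last exons are longest in the rises in the 2 bins where rises are drawn.

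The genes that rose had longer last exons than those that fell. Of the compared genes, 11932 (97.6%) were matched to a transcript in GENCODE release 29, and 54.6% of all compared genes had the same transcript version. The annotated last exon had a median length of 3248 bases in the genes that rose and 1216 in those that fell, against 1385 over all compared genes. The rises were also the longer set in the lowest 2 bins of level, which held 49 or more matched rises each. Under a level of 0.2 the medians were 3071 in rises and 1533 in falls, against 1721 over all, and at 0.2 to 0.4 they were 3565 in rises and 854 in falls, against 1067 over all. No test was made of these lengths.

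The poly(A) hexamers differed less between the sets. AATAAA was found in the final 30 bases of 57.3% of the rises and 45.9% of the falls, against 50.5% of all compared genes, and ATTAAA without AATAAA in 17 of 164 matched rises and 29 of 207 matched falls, against 12.6% of all. Of the 6 genes printed above, HYMAI is the one with AATAAA. Protein-coding transcripts made up 93.3% of the rises and 94.2% of the falls, against 88.3% of all. The last exon overlapped an exon of another gene in 23.8% of the rises and 20.3% of the falls, against 25.8% of all. Whether the authors' estimate used the strand is not given in the sources used here, so values of such genes are uncertain.

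The largest fall was in CENPBD1, a gene that encodes a CENP-B DNA-binding domain. Its PDUI was 0.35 and 0.38 in shPABPN1, against 0.97 and 0.93 in shZNF384, a difference of -0.585 (SE 0.1, adjusted p = 0.0219, limma). Genes named for their size of fall or rise were taken only where the groups did not overlap. In CENPBD1 shPABPN1 lay well under the middle of the scale and shZNF384 near 1. The values in shControl were 0.77, 0.68 and 1.0, and those in shPCBP2 0.54 and 0.37, so shPCBP2 also lay low. The last exon (chr16:89969773-89972832) overlaps the pseudogene AFG3L1P.

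REM2, which encodes a small GTPase of the Rad and Gem family, stood at 0.44 and 0.48 in shPABPN1 and at 1.0 in both shZNF384 libraries, a difference of -0.54 (SE 0.0642, adjusted p = 0.00768, limma). Here shControl, at 0.69, 0.64 and 0.6, lay between the knockdowns. No value was given for shHDAC1, which the fit left out for this gene. PREX1, an exchange factor that activates the GTPase Rac, (last exon chr20:48624252-48625927) stood at 0.39 and 0.34 in shPABPN1 and at 1.0 and 0.75 in shZNF384 (difference -0.51, SE 0.0739, adjusted p = 0.0129, limma). The shControl libraries at 0.77, 0.79 and 0.77 were close to the lower shZNF384 library, and shPABPN1 lay below all other libraries of the series.

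DAZAP2, an adaptor named for its binding to DAZ proteins, stood at 0.45 and 0.59 in shPABPN1 and at 1.0 and 0.96 in shZNF384, a difference of -0.46. TEN1, a subunit of the CST complex at telomeres, stood at 0.53 and 0.46 in shPABPN1 and at 0.84 and 1.0 in shZNF384, a difference of -0.425. Their last exons overlap SMAGP and TEN1-CDK3, so both values are uncertain. In each gene shControl, with means of 0.78 and 0.633, lay between the 2 groups.

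ZNF432, a zinc finger gene (last exon chr19:52033420-52035440), stood at 0.45 and 0.49 in shPABPN1 and at 0.89 and 0.86 in shZNF384 (difference -0.405, SE 0.043, adjusted p = 0.00282, limma). All other libraries of the series lay between 0.47 and 0.68, so here the shZNF384 libraries were the ones away from the rest. ALX1, a homeobox transcription factor, stood at 0.37 and 0.32 in shPABPN1 and at 0.74 and 0.76 in shZNF384, and its other libraries, shControl at 0.43, 0.56 and 0.44 among them, all lay between the 2 groups. OGDH, a subunit of the 2-oxoglutarate dehydrogenase complex of the citric acid cycle, stood at 0.48 and 0.49 in shPABPN1 and at 0.87 and 0.91 in shZNF384, a difference of -0.405. In OGDH the shControl libraries were spread widely, at 0.56, 0.87 and 0.77.

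FAM104B stood at 0.69 and 0.47 in shPABPN1 and at 1.0 in both shZNF384 libraries, a difference of -0.42. The noncoding SH3BP5-AS1 stood at 0.21 and 0.001, the lowest value the table holds, in shPABPN1, and at 0.72 and 0.55 in shZNF384, a difference of -0.53. Both had replicates far apart, and shControl replicate 1 and shHDAC1 replicate 1 gave no value for SH3BP5-AS1 and were left out of its fit. Of these 10 falls, PREX1 and ZNF432 stayed called when each library of the pair was left out in turn. The other 8 lost the call in at least 1 of the 4 fits, with the highest adjusted p among the 10 at 0.18 (limma). FAM104B also lost it with libraries centred on their medians (adjusted p = 0.0574, limma).

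The largest rise among genes with a symbol of their own was in HYMAI, an imprinted noncoding RNA of the PLAGL1 locus. It stood at 0.67 and 0.58 in shPABPN1 and at 0.19 and 0.13 in shZNF384, a difference of 0.465 (SE 0.0406, adjusted p = 0.00113, limma). The shControl libraries at 0.15, 0.18 and 0.12 lay with shZNF384, and the shU2AF2 libraries at 0.53 and 0.48 lay nearer to shPABPN1. Its last exon (chr6:144004916-144008262) overlaps PLAGL1. AC100830.3, known by a clone name alone and singled out after its values were seen, had a larger rise, at 0.99 and 0.96 in shPABPN1 and 0.41 and 0.5 in shZNF384, a difference of 0.52. Of the called genes, 10 falls and 9 rises had such clone names.

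DDHD1, a phospholipase that acts on phosphatidic acid, stood at 1.0 in both shPABPN1 libraries and at 0.6 and 0.51 in shZNF384 (difference 0.445, SE 0.0409, adjusted p = 0.00135, limma). Its shControl libraries were at 0.62, 0.7 and 0.66, its shPCBP2 libraries were also at 1.0, and its shSF3B4 libraries at 0.21 and 0.19, so the gene ran over most of the scale within the series. AGAP1, a GTPase-activating protein for Arf, stood at 0.96 and 1.0 in shPABPN1 and at 0.55 in both shZNF384 libraries, a difference of 0.43. The shControl libraries of AGAP1, at 0.86, 0.74 and 0.79, lay between the 2 knockdowns.

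SUGT1, a co-chaperone of HSP90, stood at 0.51 and 0.68 in shPABPN1 and at 0.18 and 0.23 in shZNF384, a difference of 0.39. MCM8, a helicase of homologous recombination, stood at 0.82 and 0.59 in shPABPN1 and at 0.35 and 0.33 in shZNF384, a difference of 0.365. ZNF382, a zinc finger gene, stood at 0.71 and 0.48 in shPABPN1 and at 0.26 and 0.22 in shZNF384, a difference of 0.355. In these 3 genes shControl (means 0.13, 0.34 and 0.177) lay with or below shZNF384, and the shPABPN1 replicates were farther from each other than the shZNF384 replicates.

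GLG1, a glycoprotein of the Golgi, stood at 0.99 and 0.82 in shPABPN1 and at 0.54 and 0.46 in shZNF384, a difference of 0.405. FUT10, a fucosyltransferase family member, stood at 1.0 and 0.98 in shPABPN1 and at 0.54 and 0.72 in shZNF384, a difference of 0.36. Both shU2AF2 libraries of FUT10 were also at 1.0. DEGS2, an enzyme of sphingolipid synthesis, stood at 0.81 and 0.72 in shPABPN1 and at 0.47 and 0.37 in shZNF384 (difference 0.345), and RPS28, a protein of the small ribosomal subunit, at 0.68 and 0.57 in shPABPN1 and 0.27 and 0.32 in shZNF384 (difference 0.33). The last exons of DDHD1, DEGS2 and RPS28 overlap AL352979.2, EVL and KANK3. Of the 10 rises, HYMAI and DDHD1 stayed called when each library of the pair was left out in turn, and the other 8 lost the call in at least 1 of the 4 fits, with the highest adjusted p among the 10 at 0.196 (limma).

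**Figure D3:**
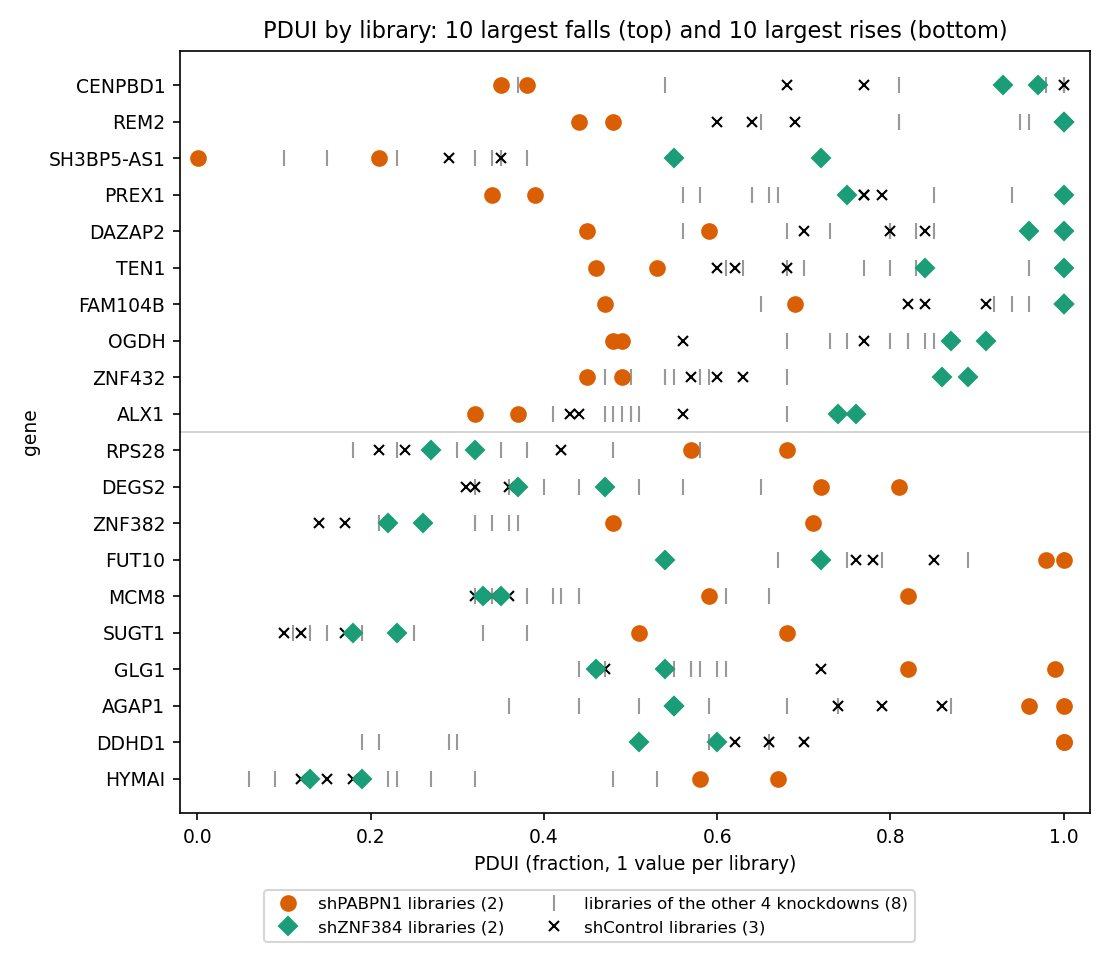
PDUI (fraction) in each library of shPABPN1, shZNF384, shControl and the other 4 knockdowns for the genes with the 10 largest falls and the 10 largest rises, 1 point per library. In all 20 genes the 2 shPABPN1 points lie wholly on one side of the 2 shZNF384 points, which was a condition of their choice. In HYMAI, SUGT1 and MCM8 the shControl points lie near or below shZNF384.

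Seen against the remaining groups, the rises and the falls were laid out differently. For the 165 rises the median PDUI was 0.29 in shPABPN1 and 0.17 in shZNF384, and 0.15 in shHDAC1, 0.205 in shPCBP2, 0.165 in shSF3B4, 0.22 in shU2AF2 and 0.147 in shControl. For the 210 falls it was 0.385 in shPABPN1 and 0.583 in shZNF384, and 0.51 in shHDAC1, 0.515 in shPCBP2, 0.515 in shSF3B4, 0.52 in shU2AF2 and 0.48 in shControl. In the rises shPABPN1 was thus the group away from the rest, and in the falls the rest lay between the 2 knockdowns. The genes were called on the gap between these 2 groups, so the order of shPABPN1 and shZNF384 is fixed by the calls. The pair was also chosen as the groups with the lowest and highest mean PDUI, which favours their place at the ends in the falls.

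Counted by gene, shPABPN1 was farther than shZNF384 from the mean of the other 4 knockdowns in 149 of 165 rises (90.3%), against 59.0% of all genes with a positive difference, and in 159 of 210 falls (75.7%), against 66.2% of all genes with a negative one. Set against shControl, shPABPN1 was the farther group in 159 of the rises (96.4%), against 68.5% of all positive differences. In the falls it was the farther group in 89 (42.4%), against 49.4% of all negative differences, and shZNF384 was in 121 (57.6%), against 49.8%. Since shControl enters with its 3 libraries at unequal means and its library names differ, its place between the groups is given as a value only.

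**Figure D4:**
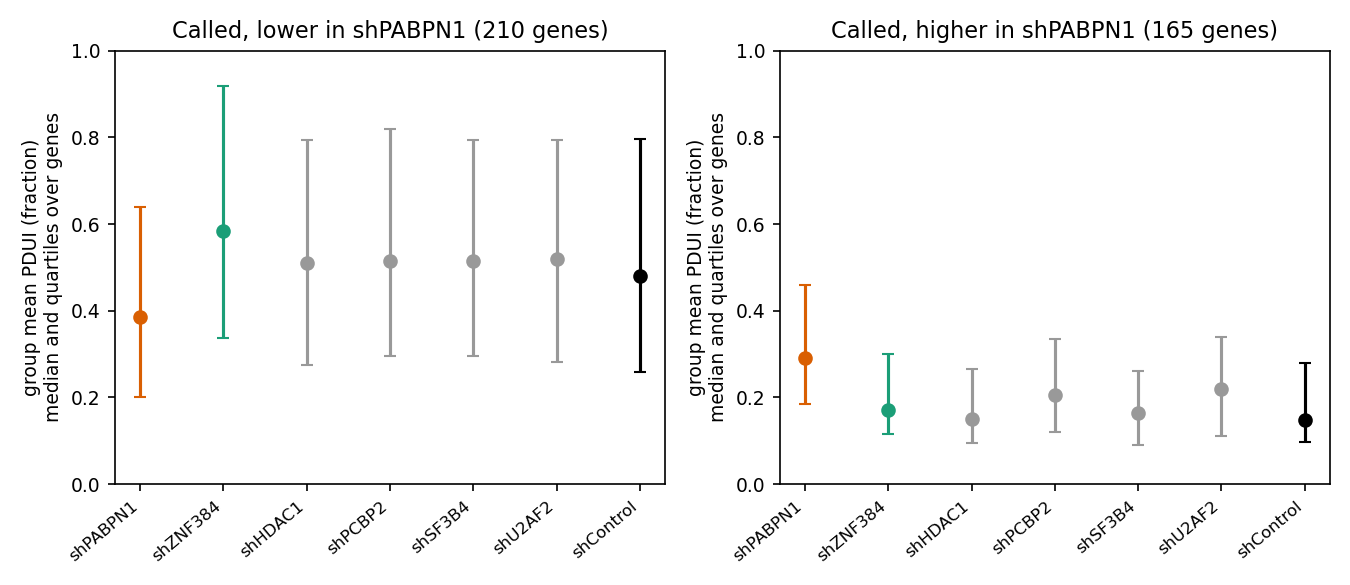
Median PDUI (fraction) of each group over the genes that fell (left) and the genes that rose (right), with bars for the quartiles over genes. shPABPN1 is the lowest group in the falls, at 0.385, and the highest in the rises, at 0.29, while shZNF384 is the highest in the falls, at 0.583. The order of these 2 groups is fixed by the calls.

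The genes targeted in the series were looked at one by one. HDAC1, a histone deacetylase, fell, with 0.72 and 0.58 in shPABPN1 and 0.92 and 0.9 in shZNF384 (difference -0.26, SE 0.0567, adjusted p = 0.0454, limma). PABPN1 stood at 0.58 and 0.49 in shPABPN1 and at 0.53 and 0.46 in shZNF384, and these overlapped (difference 0.04, adjusted p = 0.662). ZNF384 stood at 0.67 and 0.61 in shPABPN1 and at 0.79 in both shZNF384 libraries, a difference of -0.15 that was not called (adjusted p = 0.172).

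U2AF2, which recognises the polypyrimidine tract before a 3′ splice site, stood at 0.34 and 0.35 in shPABPN1 and at 0.44 and 0.48 in shZNF384 (difference -0.115, adjusted p = 0.084, limma). PCBP2 and SF3B4 differed by -0.05 and -0.045 (adjusted p = 0.298 and 0.457, limma). Without shControl replicate 1, ZNF384 and U2AF2 were called, with the same differences and adjusted p-values of 0.0443 and 0.0285 (limma), and U2AF2 was also called with the 12 knockdown libraries alone (adjusted p = 0.0441, limma). With libraries centred on their medians the differences shrank to -0.08 in ZNF384 and -0.045 in U2AF2 (adjusted p = 0.399 and 0.416, limma). Under the shift neither was called (adjusted p = 0.246 and 0.165, limma). The last exons of PABPN1, ZNF384, U2AF2 and PCBP2 overlap exons of other genes.

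Lists of genes were described by their counts and medians, beside -0.035, the median over all compared genes. Together the 17 lists held 546 distinct compared genes, of which 12 fell and 16 rose (5.13% called, against 3.07% of all genes). None of the 26 cleavage and polyadenylation factors was called by limma, with a list median of -0.05, although 10 had an unadjusted p under 0.05. Of 17 genes for poly(A) tail binding and the PAXT connection, which feeds polyadenylated nuclear RNA to the exosome, none was called and 3 had an unadjusted p under 0.05 (limma). The median of the second list was -0.035. With 3.07% of all genes called, no call in lists of this size is near the background. Without shControl replicate 1 there were 2 calls in the first list and 2 in the second. That fit had 1204 calls among all 12227 genes, so the 3.07% is not its background.

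Downstream of the tail, 1 of 21 genes for the nuclear exosome and export rose and 1 fell. EXOSC6, a core subunit of the exosome (last exon chr16:70246778-70251930), stood at 0.4 and 0.42 in shPABPN1 and at 0.29 and 0.3 in shZNF384 (difference 0.115, SE 0.0098, adjusted p = 0.00113, limma). All other libraries of EXOSC6 lay at 0.31 or below. NXF1, the main export receptor of messenger RNA, stood at 0.41 and 0.37 in shPABPN1 and at 0.52 and 0.53 in shZNF384 (difference -0.135, adjusted p = 0.0302, limma). NXF1 in shControl, at 0.5, 0.53 and 0.53, lay with shZNF384. The call of NXF1 was lost under both rescalings, with a difference of -0.065 when libraries were centred on their medians (adjusted p = 0.288) and an adjusted p of 0.102 under the shift (limma).

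Splicing regulators held calls in both directions. Of 19 SR proteins, SREK1 and SRSF1 rose and SRSF10 and PNN fell on the deposited scale, with a list median of -0.04. Both falls were lost when libraries were centred on their medians, with differences of -0.04 in SRSF10 and 0.015 in PNN (adjusted p = 0.52 and 0.734, limma), and under the shift. SREK1 stood at 0.38 and 0.4 in shPABPN1 and at 0.3 and 0.27 in shZNF384 (difference 0.105, adjusted p = 0.00439, limma), with shControl at 0.3, 0.29 and 0.31 beside shZNF384. SRSF1, an SR protein that activates exons, stood at 0.3 and 0.23 in shPABPN1 and at 0.19 and 0.18 in shZNF384, a difference of 0.08, and its last exon overlaps AC015813.2.

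SRSF10 differed by -0.11 and PNN, which encodes pinin, by -0.055. Of 37 hnRNP and KH-domain proteins, HNRNPDL (0.16), HNRNPA3 (0.085) and HNRNPC (0.035) rose and IGF2BP2, a protein that binds and stabilises messages, fell (-0.15), with a list median of -0.045. HNRNPC stood at 0.17 and 0.18 in shPABPN1 and at 0.14 in both shZNF384 libraries, with shControl at 0.18, 0.18 and 0.17 beside shPABPN1.

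Among 41 genes known for 3′ untranslated regions of varying length, 2 rose and 1 fell, with a list median of -0.01. CD47, whose long untranslated region is known to steer the protein to the cell surface, stood at 0.58 and 0.52 in shPABPN1 and at 0.37 and 0.39 in shZNF384 (difference 0.17, adjusted p = 0.0202, limma). The shControl libraries of CD47, at 0.31, 0.26 and 0.25, were the lowest of these 3 groups. RAC1, a GTPase of cell motility, stood at 1.0 in both shPABPN1 libraries and at 0.86 in both shZNF384 libraries, and AKT1S1, an inhibitor of the kinase complex mTORC1, fell, with 0.59 and 0.64 in shPABPN1 and 0.92 and 1.0 in shZNF384.

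In 34 genes of HDAC corepressor complexes 3 fell and none rose, with a list median of -0.05. Besides HDAC1 these were HDAC3, the deacetylase of the NCoR complex, at 0.26 and 0.25 in shPABPN1 and 0.39 and 0.4 in shZNF384 (difference -0.14, adjusted p = 0.00907, limma), and CHD3, a remodeller of the NuRD complex, at 0.3 and 0.28 in shPABPN1 and 0.42 and 0.43 in shZNF384. In both genes shControl lay between the groups. With libraries centred on their medians none of the 3 was called, with differences of -0.19 in HDAC1, -0.07 in HDAC3 and -0.065 in CHD3 (adjusted p = 0.0727, 0.102 and 0.109, limma). In 48 neurodevelopmental disorder genes CHD3 and MED13 fell. MED13, of the kinase module of Mediator, stood at 0.53 and 0.59 in shPABPN1 and at 0.88 and 1.0 in shZNF384 (difference -0.38, adjusted p = 0.0102, limma), with shControl at 1.0, 0.98 and 1.0.

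Of 38 neurodegeneration genes, 1 fell. This was FBXO7, an F-box protein linked to parkinsonism, which stood at 0.37 and 0.36 in shPABPN1 and at 0.55 in both shZNF384 libraries (difference -0.185, adjusted p = 0.0454, limma). The lowest shControl library of FBXO7 was also at 0.37, so shControl reached down to shPABPN1.

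In 33 genes of oxidative phosphorylation the list median was 0, and NDUFV3, COX7B and NDUFA9 rose while ATP5F1B, the catalytic subunit of ATP synthase, fell on the deposited scale, with a difference of -0.06, against 0.01 when libraries were centred on their medians. NDUFV3, a subunit of complex I, stood at 0.29 and 0.33 in shPABPN1 and at 0.18 and 0.19 in shZNF384 (difference 0.125, adjusted p = 0.003, limma). The changes of COX7B (0.03) and NDUFA9 (0.01) were small, near the 0.01 step in which values are deposited.

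RAB11A, of recycling endosomes, rose by 0.055 and RAB31 fell by 0.255 in 55 genes of vesicle traffic. ZNF326 rose by 0.165 in 29 C2H2 zinc finger regulators. No gene was called by limma among 25 of the microRNA pathway, 27 of focal adhesion and the partners of p130Cas, and 41 of the cell cycle, where 4, 8 and 16 genes had an unadjusted p under 0.05. No call in lists of this size is near the background of 3.07%. With the 12 knockdown libraries alone, 1, 3 and 9 genes of these lists fell and none rose. That fit had 943 calls among 12227 genes. The list medians were -0.025 in the microRNA pathway and -0.07 in focal adhesion and in the cell cycle.

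Of the 28 called list genes, EXOSC6, SREK1 and NDUFV3 stayed called when each library of the pair was left out in turn. The other 25 lost the call in at least 1 of the 4 fits, with the highest adjusted p among the 28 at 0.192 (limma). With libraries centred on their medians, 10 of the 12 falls lost the call, all but AKT1S1 and MED13, and 2 of the 16 rises did, COX7B and NDUFA9. Under the shift 6 of the 12 falls lost it, FBXO7 and IGF2BP2 among them, and none of the rises.

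**Figure D5:**
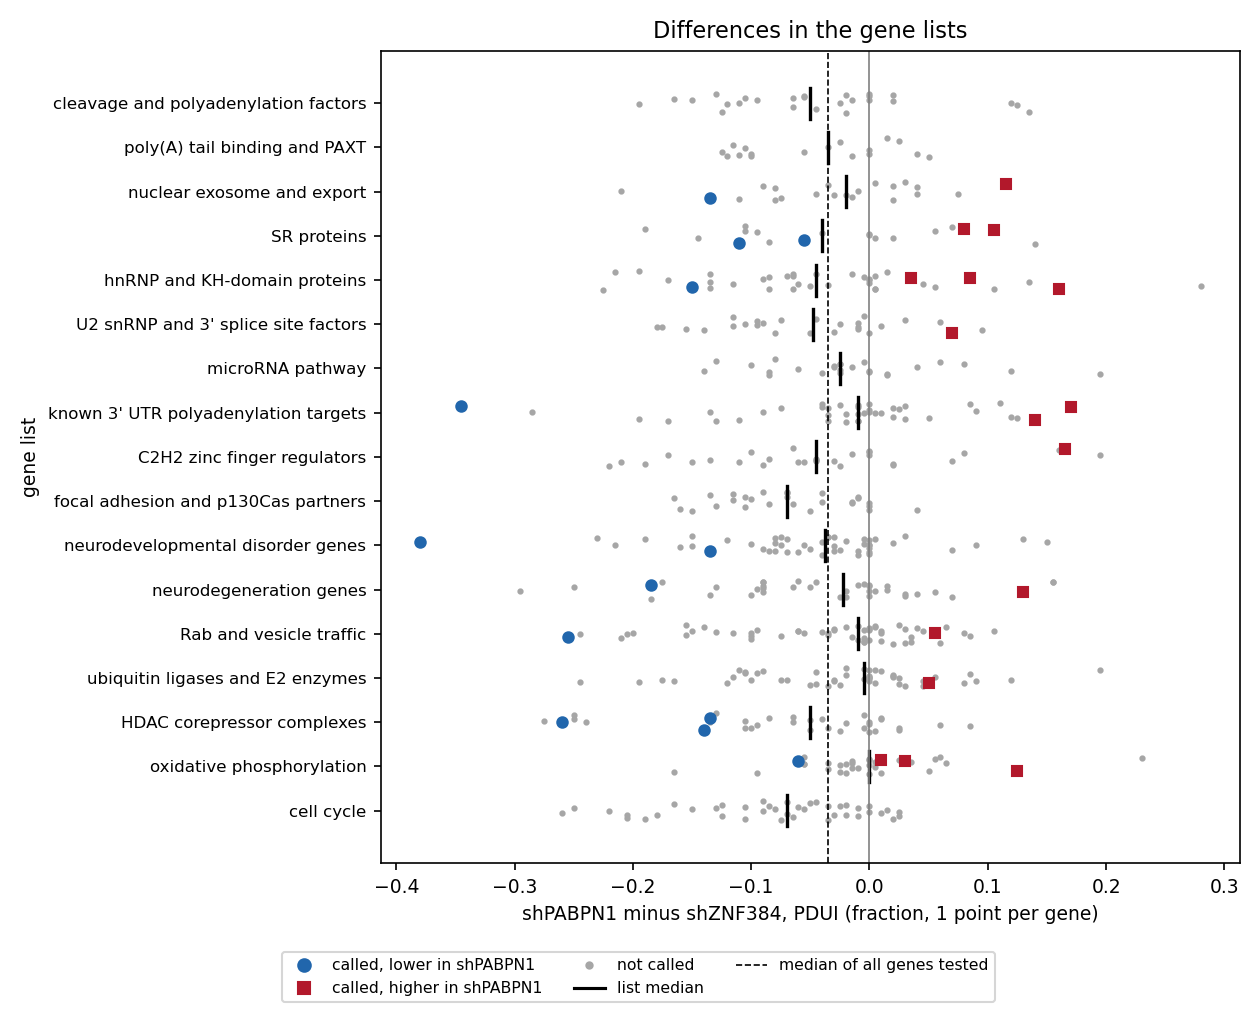
Difference in PDUI (shPABPN1 minus shZNF384) for each compared gene of the 17 lists, 1 point per gene, with the list median as a bar and the median of all compared genes, -0.035, as a dashed line. Called genes are few in every list, 5 lists have none, and the medians run between -0.07 and 0.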

How the data were processed

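The authors deposited 1 table of PDUI values in the unit fraction, with 1 transcript per gene and 15 libraries, on hg38 per the submitters' processing notes. Values ran between 0.001 and 1 with 2 decimals. Which aligner, PDUI program and annotation were used is not given in the sources used here, and without read counts the depth is unknown.

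Libraries were grouped by the labels. The shSF3B4 columns were assigned to their group only. The deposited values were fitted unchanged with limma 3.58.1 (R 4.3.3), with 1 mean for each of the 7 groups, eBayes with a trend and two-sided tests of shPABPN1 minus shZNF384. Spread was shared over all 15 libraries (8 residual degrees of freedom, prior 1.07), since the pair alone leaves 2. In 471 genes no group had any spread. The Benjamini-Hochberg adjustment ran over 12227 genes. The fit was tested on simulated data.

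Named genes were the 10 largest falls and rises among called genes whose groups did not overlap and that had no clone name, up to 4 called genes per list by smallest p, and the 6 targeted genes. Some genes that met this rule are not reported here. The members and lists were chosen with earlier results of these data known. Last exons and hexamers came from GENCODE release 29 on GRCh38. Alternatives covered the libraries fitted, scaling, the logit scale, the variance trend, filters, a replicate block and left-out libraries.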

Additional observations from a re-analysis of the deposited data

How the results depend on the processing

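All differences of named genes kept their sign under every alternative run except PNN (0.015), SF3B4 (0.025), PCBP2 (0.02) and ATP5F1B (0.01) with libraries centred on their medians, and PABPN1, at -0.005 to 0.085 when 1 library was left out. The calls moved more. In the fit of the 4 libraries alone the smallest adjusted p was 0.0885 (limma), with 0 calls, 0 falls, 0 rises, 0 calls of at least 0.1 and 0 list genes called, and 2541 genes at an unadjusted p under 0.05. With the 12 knockdown libraries there were 943 calls (730 falls, 683 of at least 0.1, 79 list genes). Centring on medians gave 30 falls, 366 rises and a median difference of 0.035. The shift by the median difference from the gene means, chosen after seeing the data, gave 102 falls, 376 rises and a median difference of -0.0033. Genes with a mean of 0.05 to 0.95 gave 248 calls, 119 falls, a median difference of -0.05 and 15 list genes. Leaving out genes without spread in any group, also chosen after seeing the data, gave 123 falls and 17 list genes. Leaving out 1 library in turn, including shControl replicate 1, gave 81 to 1204 calls, 23 to 938 falls, 57 to 266 rises, 55 to 863 calls of at least 0.1 and 7 to 101 list genes. A group left with 1 library is assumed to vary like the others. The logit scale (419 calls), no variance trend (378), 0.001 as missing (389) and genes complete in all libraries (405) stayed within 1.5 times the 375 calls. The causes were not tested.

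With the replicate number as a block there were 260 calls, 149 falls and 111 rises. The labels share only a number between groups: the replicate differences of shPABPN1 and shZNF384 correlated at -0.00678 across genes, and those of all pairs of groups checked at -0.0223 to 0.0204.

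Values with 2 decimals, 2 libraries a group and an unknown depth limit what can be called.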

Other observations

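A small set of genes was called in every alternative that it entered, apart from the fit of the 4 libraries alone, which called none. It held 39 genes, 3 that fell (ZNF432, ZNF500 and CCDC97) and 36 that rose, and was picked after the values were seen. The alternatives include centring, with 30 falls and 366 rises, and the shift, with 102 falls and 376 rises. They also include the fits with each library of the pair left out in turn. Which alternatives set the balance of falls and rises in the set was not tested. ELOVL6, an enzyme that lengthens fatty acids, stood at 0.74 and 0.71 in shPABPN1 and at 0.4 and 0.43 in shZNF384. NUTF2, the import factor of the GTPase Ran, stood at 0.46 and 0.4 in shPABPN1 and at 0.18 and 0.19 in shZNF384. RPL37, of the large ribosomal subunit, stood at 0.37 and 0.31 in shPABPN1 and at 0.16 in both shZNF384 libraries, and RPS15A, of the small subunit, at 0.11 and 0.1 in shPABPN1 and at 0.03 in both shZNF384 libraries. In ELOVL6 and RPL37 the shControl means, 0.29 and 0.117, were below shZNF384.

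Several of these 36 were used mostly at the proximal site. PGK1, of glycolysis, stood at 0.14 and 0.13 in shPABPN1 and at 0.09 and 0.08 in shZNF384, and VAPA, of endoplasmic reticulum contacts, at 0.16 in both shPABPN1 libraries and 0.1 in both shZNF384 libraries. RBM3, a cold-induced RNA-binding protein, stood at 0.18 and 0.19 in shPABPN1 and at 0.13 and 0.11 in shZNF384. Of the 36, 23 had a level under 0.2 in the libraries outside the pair, against 96 of all 165 called rises and 1886 of all 12227 compared genes. The annotated last exons of the 36 had a median length of 3989 bases, against 3248 in all called rises. Both traits are thus shared with the called rises at large. CCDC97 stood at 0.78 and 0.74 in shPABPN1 and at 1.0 in both shZNF384 libraries, with a shControl mean of 0.97, and ZNF500 at 0.21 and 0.19 in shPABPN1 and at 0.4 and 0.45 in shZNF384, with a shControl mean of 0.317.

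Although the pair has the widest gap in mean PDUI, other pairs of knockdowns, which share libraries with it, had more calls in the same fit. The 15 pairs of knockdowns had between 9 calls (0.0727% of the genes tested) and 1209 (10.1%), and shPABPN1 against shZNF384 had 375.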
